A study of Drosophila melanogaster with 6 samples.

Results

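The Bomanins and Daishos are small secreted peptides of the fruit fly's antifungal and antibacterial defence, and 10 of their genes were examined in whole adult Drosophila melanogaster: BomS1 to BomS5, BomBc1, BomT1, BomT2, Dso1 and Dso2. They were found by matching their current and older symbols (IM1, IM2 and so on, for immune-induced molecule) to the array's probe sets, the groups of short oligonucleotides that together read 1 transcript. Of the 10 genes, 4 had a probe set annotated to them alone, namely BomS2, BomS4, BomS5 and BomT2, among 11982 genes with such a probe set in all. The other 6, which were BomS1, BomS3, BomBc1, BomT1, Dso1 and Dso2, were not analysed here, so both Daisho genes are without values.

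In flies, the receptor Toll is activated by its ligand Spätzle after sensor proteins meet fungal or Gram-positive cell walls and a chain of serine proteases is set off. The adaptors Myd88, Tube and the kinase Pelle then lead to loss of the inhibitor Cactus, and the NF-kappaB factors Dif and Dorsal turn on target genes, above all in the fat body, which secretes their products into the haemolymph. Bomanins are among the most strongly induced of these targets. They come in a short form that is little more than the Bomanin motif (BomS), a form with a tail after the motif (BomT) and a bicipital form with a pair of motifs joined by a linker (BomBc).

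Samples were pools of 25 males and 25 females. The 3 samples of the cross came from da-GAL4 flies mated to a UAS-AMP line, in which the promoter of the broadly active gene daughterless drives an antimicrobial peptide (AMP) transgene that the labels do not name. The 3 control samples came from the UAS-AMP stock itself, so both groups carried the transgene and the cross alone carried the driver and the driver stock's chromosomes. Driver-only flies were not analysed here, the flies' age is given only as adult, and every difference below is one between the cross as a whole and the uncrossed stock.

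Each sample was read on 1 Affymetrix Drosophila Genome 2.0 array, and values are signals on a linear scale as deposited. Log2 signals correlated at 0.946 to 0.958 between arrays of a group and at 0.945 to 0.953 between arrays of different groups, across probe sets. Markers of the tissues a whole fly holds were present: none of the 8 fat body, 9 haemocyte, 14 egg and yolk, or 16 testis and accessory gland genes measured lay within the background on all 6 arrays. The background was taken as the 95th percentile of 27 probe sets for Bacillus genes, which lay between 90.3 and 123 depending on the array. Precision is limited by the 6 arrays. Nothing in the labels says that pools of one group were raised apart, and the p-values below therefore rest on a spread that could be partly technical.

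The 4 measured Bomanins did not move together. BomS2 was the one that was lower in the cross, 3.19-fold, while BomS4, BomS5 and BomT2 had higher means there, by 1.30-fold, 1.77-fold and 1.23-fold. All 4 were bright on all 6 arrays, above 83.0% to 93.4% of the probe sets tested, so none of the values below is near the background. Signals of different probe sets were not compared with each other as levels, because probes differ in how strongly they bind.

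BomS2, the short Bomanin first described as IM2, had signals of 16679.5, 28462 and 15494 in control replicates 1, 2 and 3 and of 4681, 8603 and 5601 in replicates 1, 2 and 3 of the cross. The lowest control array thus lay well above the highest array of the cross. The means were 20212 ± 7169 and 6295 ± 2051 (SD, n = 3 each), and the log2 fold change, cross minus control, was -1.68 with a standard error of 0.34 and a 95% interval of -2.53 to -0.82. In the main test, limma with 1 prior variance for all probe sets and Benjamini-Hochberg adjustment over all 18769, its adjusted p was 0.216. In that test 0 of the 4 Bomanins and 0.0% of all probe sets passed an adjusted p of 0.05. The unadjusted limma p of BomS2 was 0.00345. In the same fit 7.51% of all genes had an unadjusted p under 0.05 with lower signal in the cross and 3.0% with higher signal, against 1 and 0 of these 4.

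With a limma prior that follows the signal and is robust to outlying probe sets, called the trended fit below, BomS2 passed (adjusted p = 0.03). In that fit 0.534% of all genes passed as lower in the cross and 0.334% as higher, and BomS2 was the sole member of the 4 in either set. The call did not hold in every fit that left out 1 array. The trended fit's adjusted p was 0.141 or 0.106 when replicate 1 or 2 of the control was left out, and 0.168 or 0.113 when replicate 1 or 3 of the cross was. It was 0.029 without control replicate 3 and 0.027 without cross replicate 2. Probe sets called in all fell from 147 to 7, 20, 11 and 96 in the fits where BomS2 failed, and were 225 and 103 where it passed. The unadjusted limma p of BomS2 was 0.000374 to 0.00161 where it failed. The size of the difference moved less, with log2 fold changes of -1.93 to -1.40 over the 6 fits that left out 1 array. An exact two-sided permutation test over the 6 arrays gave p = 0.1, the smallest that 3 against 3 allows.

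BomS4, another short Bomanin, was the other gene of the 4 whose groups lay apart, in the opposite direction. Its signals were 3424.5, 4263 and 4514 in the control and 5364, 5026 and 5345 in the cross. The 3 arrays of the cross lay close together, above all 3 control arrays. The means were 4067 ± 571 and 5245 ± 190 (SD, n = 3 each), with a log2 fold change of 0.38 (95% interval -0.01 to 0.76, limma adjusted p = 0.461 in the main test and 0.271 in the trended fit). Groups lay apart in 19.8% of all genes, 6.72% with the cross higher and 13.1% with the cross lower, against 2 of these 4.

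BomS5, also of the short form, varied most. Its signals were 4611, 6473 and 7693 in the control and 13311, 18154 and 5284 in the cross. Replicates 1 and 2 of the cross lay above every control array, and replicate 3 lay inside the control range. The log2 fold change was 0.83 with a 95% interval of -0.44 to 2.09 (limma adjusted p = 0.608 in the main test and 0.535 in the trended fit). It was 1.34 without cross replicate 3 and 0.45 without cross replicate 2, so its size depended on which of these arrays was kept.

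BomT2, the tailed Bomanin, had signals of 7099.9, 10290.1 and 6053 in the control and of 8876, 9435 and 9731.5 in the cross. All 3 arrays of the cross lay within the control range. The log2 fold change was 0.29 with a 95% interval of -0.27 to 0.86 (limma adjusted p = 0.658 in the main test and 0.537 in the trended fit). The median log2 fold change of the 4 genes was 0.34, with 3 estimates above 0 and 1 below, beside a median of -0.002 over all genes, of which 49.8% had estimates above 0. A median of 4 values that run from -1.68 to 0.83 describes no gene among them.

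**Figure D1:**
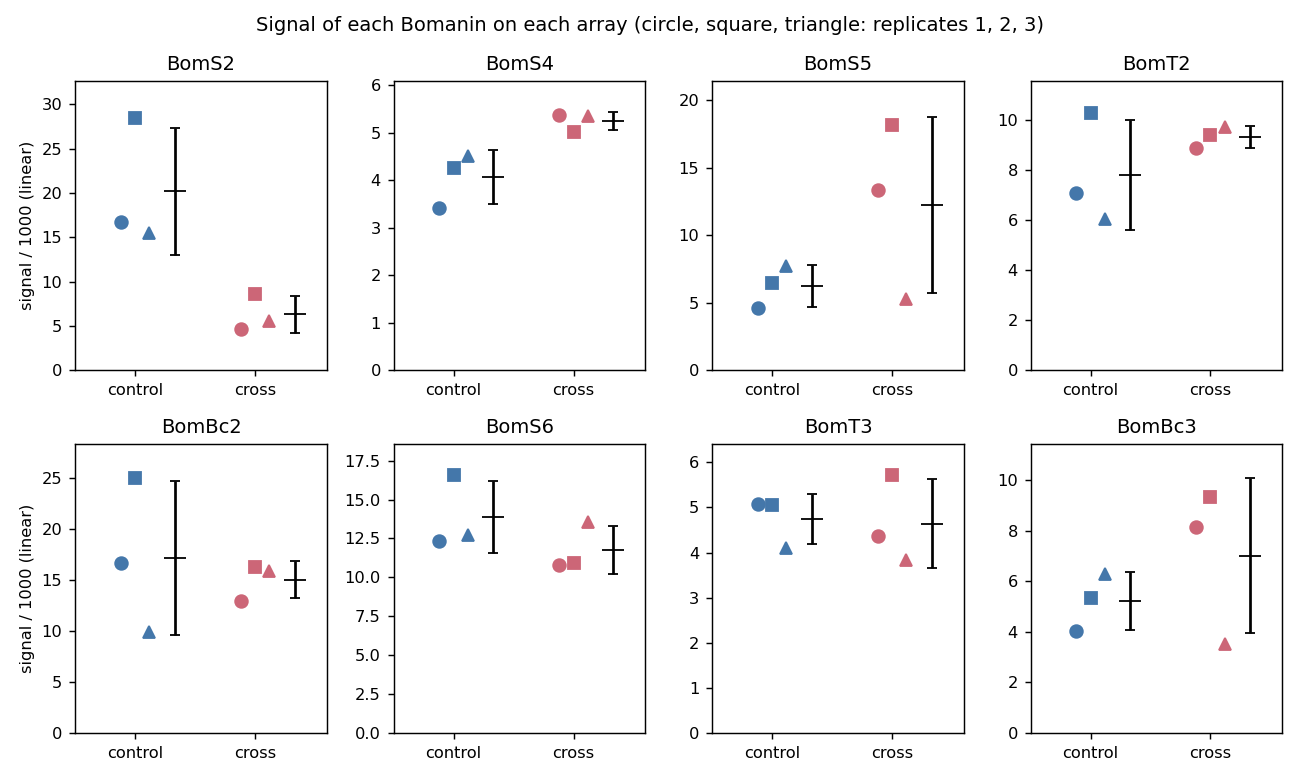
Signal (in units of 1000, linear axis from 0) of the 8 measured Bomanins on each array, control in blue and cross in red, with circle, square and triangle for replicates 1, 2 and 3. The bar beside each group is the mean ± SD of 3 arrays. In BomS2 all 3 arrays of the cross lie below the control, in BomS4 all 3 lie above it, and in the other 6 genes the groups overlap.

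In the gene order of the Release 6 assembly, the 8 Bomanin genes among the 10 lie in 1 run of neighbouring genes on chromosome arm 2R, and Dso1 and Dso2 lie side by side elsewhere on the same arm. The run reads BomT1, BomBc1, BomS1, BomS4, BomBc2, BomS2, BomS3, BomT2, BomS5 and BomS6. BomBc2 and BomS6 belong to the run without being among the 10, and BomT3 and BomBc3 are Bomanin genes on arm 3R. Values for BomS6, BomT3 and BomBc3 were added as paralogues after their values were seen. The annotated ranges of BomS4 and BomBc2 overlap, and which stretch their probes read is not given in the sources used here, so those 2 signals may not be fully separate.

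BomBc2, a bicipital Bomanin and the neighbour of BomS2 within the run, had signals of 16614, 24992 and 9929 in the control and of 12951, 16245 and 15883 in the cross. The groups overlapped, and the log2 fold change was -0.10 (95% interval -1.0 to 0.79). BomS6, the short Bomanin at the end of the run, had means of 13877 ± 2345 and 11760 ± 1553, a log2 fold change of -0.23 (95% interval -0.69 to 0.23). The 6 measured genes of the run thus shared no direction, with 3 estimates above and 3 below 0. BomT3 on arm 3R had means of 4745 ± 555 and 4642 ± 978 (log2 fold change -0.05). BomBc3, on the same arm, had signals of 4028, 5349 and 6291 in the control and of 8139.7, 9356 and 3536 in the cross. Its log2 fold change was 0.33 (95% interval -0.72 to 1.38). As in BomS5, replicates 1 and 2 of the cross were above every control array and replicate 3 was low. None of these 4 paralogues passed in either limma fit.

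The difference between BomS2 and its relatives could also be read within each array, where any scaling of the array cancels. Log2 BomS2 minus log2 BomS4 was 2.28, 2.74 and 1.78 in the control and -0.20, 0.78 and 0.07 in the cross, a shift of -2.05. Against BomT2 the same quantity was 1.23, 1.47 and 1.36 in the control, with an SD of 0.12, and -0.92, -0.13 and -0.80 in the cross, a shift of -1.97. BomS2 and BomT2 thus kept nearly the same ratio on the 3 control arrays, and the ratio was lower on all 3 arrays of the cross. That control SD was the smallest of the 7 pairings of BomS2 with another Bomanin, and the SD of this pair in the cross was 0.42. Against BomBc2, its neighbour, the shift was -1.57, and against BomS5, BomS6, BomT3 and BomBc3 it was -2.50, -1.44, -1.63 and -2.01. In all 7 pairings with BomS2 the groups lay apart, which includes the common part of BomS2 in every pair. In the 3 pairings among BomS4, BomS5 and BomT2 the groups overlapped, with shifts of -0.45, 0.08 and 0.53. Over these 10 pairs, exact two-sided permutation p-values were 0.1 for the 7 with BomS2 and 0.5 to 0.8 for the others. The 0.1 became 0.143 after Benjamini-Hochberg adjustment. As 0.1 is the smallest p the design allows, no adjusted value could have been lower than that. The 7 pairs all hold BomS2, whose own groups lay apart, so they repeat 1 difference and are not separate results. Pairs without BomS2 were taken only among BomS4, BomS5 and BomT2, so the 7 and the 3 are not a fair contrast.

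**Figure D2:**
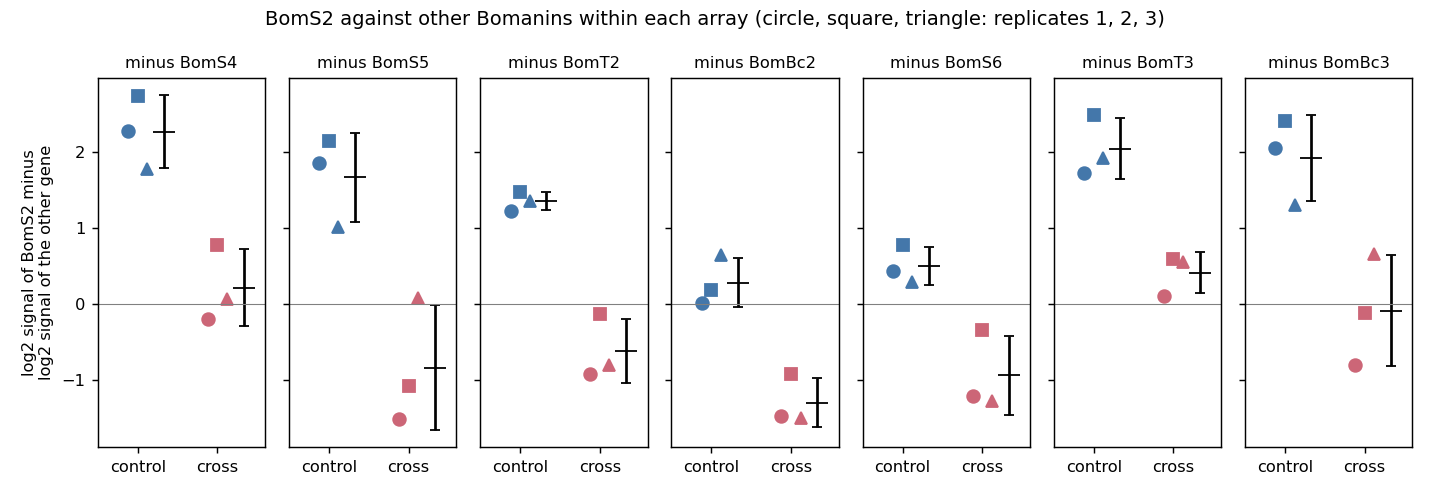
Log2 signal of BomS2 minus log2 signal of each other measured Bomanin on the same array, control in blue and cross in red, with circle, square and triangle for replicates 1, 2 and 3 and the mean ± SD of 3 arrays beside each group. In all 7 panels the arrays of the cross lie below the control arrays, with shifts of -2.50 to -1.44.

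Arrays of a group differed more in several Bomanins than in most genes of like brightness. The residual SD within groups, on the log2 scale, was 0.71 for BomS5, larger than in 98.5% of the 1000 probe sets nearest to it in mean signal. It was 0.47 for BomS2 (larger than in 95.9%) and 0.28 for BomT2 (larger than in 84.4%), where the median of such neighbours was 0.14. BomS4, at 0.15, was ordinary (larger than in 47.5%, median 0.16). Among the paralogues, BomBc2 and BomBc3 had residual SDs of 0.49 and 0.58, larger than in 97.4% and 98.7% of their neighbours. Such spread was not confined to Bomanins. Among other Toll-induced genes, the residual SD was larger than in 92.1% of neighbours for Bbd, 81.3% for Mtk, 76.9% for Drs and 43.3% for IM33. The residual SD enters the limma test, so a 3.19-fold difference in a gene as variable as BomS2 counts for less than in a steady gene of the same brightness.

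**Figure D3:**
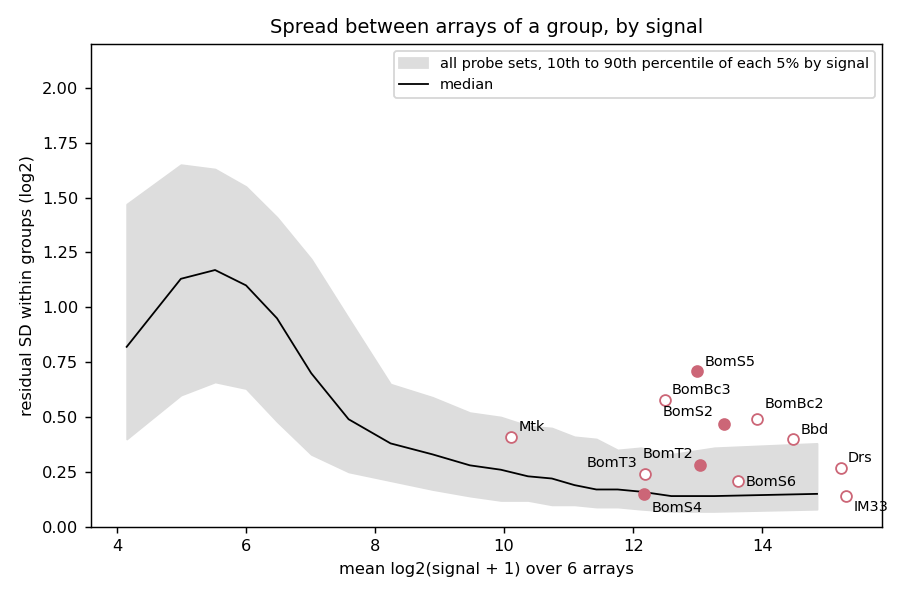
Residual SD within groups (log2) against mean log2(signal + 1) over 6 arrays. The grey band spans the 10th to 90th percentile and the line the median of all probe sets in bins of 5% by signal, and filled points are BomS2, BomS4, BomS5 and BomT2, open points other Toll-induced genes. BomS5, BomBc3, BomBc2, BomS2 and Bbd lie above the band and BomS4 lies on the median.

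The variation over the 6 arrays was not shared by all Bomanins. Among the 55 pairs of the 8 measured Bomanins, Bbd, Drs and Mtk, the 5 correlations largest in size were those of BomS5 with BomBc3 (Pearson r = 0.95, Spearman rho = 0.94), BomBc2 with Drs (r = -0.94), BomBc3 with Bbd (r = 0.88), BomT2 with Drs (r = -0.87) and BomS5 with Mtk (r = 0.85). The Spearman rho was -0.77 for BomBc2 with Drs, 0.94 for BomBc3 with Bbd, -0.94 for BomT2 with Drs and only 0.60 for BomS5 with Mtk. BomS5 and BomBc3 lie on different arms. Bbd is the gene of Bombardier, a secreted protein needed for short Bomanins to reach their level in the haemolymph. Its signals were 21435.5, 22906 and 26147 in the control and 24382, 31395 and 14771 in the cross, a log2 fold change of -0.06. Of the 4 short Bomanins measured, BomS5 had an r of 0.74 with Bbd, while BomS2, BomS4 and BomS6 had an r of 0.21, -0.05 and -0.43. BomS2 ran against BomS4 (r = -0.76), as their opposite group differences entail. These are descriptions over 6 arrays in 2 groups, given without a p-value.

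Of the 8 fat body markers measured, 3 ordered the arrays as BomS2 did within both groups and 5 did not. The 3 were the storage protein gene Lsp2 and the fat body protein genes Fbp1 and Fbp2. They varied widely within groups, with residual SDs of 1.61, 2.71 and 1.76, while those of the other 5 were 0.09 to 0.29. Fbp1 was above the background on 4 of 6 arrays. The share of all genes with the order of BomS2 was not counted. The 3 of 8 here and the count of haemocyte markers below therefore have nothing to be compared with. Lsp2 had signals of 3797, 6174 and 429 in the control and of 633.5, 2449 and 1489 in the cross, so replicate 2 was highest in both groups, as in BomS2. Among the other 5, apolpp, the gene of the main lipid carrier of the haemolymph, was lowest in control replicate 2 (54268), and srp, a GATA factor gene, was highest in control replicate 1 (4789). All 8 had estimates below 0, with a median log2 fold change of -0.32. Groups lay apart in 2 of them, both lower in the cross, where 13.1% of all genes were so. The summed signal of the 8 markers was 86259 to 98854 in the control and 76569 to 93648 in the cross, highest in control replicate 1 and cross replicate 3. It is weighted to the brightest gene, apolpp (control mean 57758). Of 9 haemocyte markers 8 had estimates below 0 (median -0.33), with summed signals of 31237 to 49258 and 31435 to 34513, and 1 of the 9 ordered the arrays as BomS2 did. That sum is weighted to its brightest genes, the collagen genes Col4a1 and vkg (control means 14592 and 12365), while Hml had a control mean of 2835. Groups lay apart, with the cross lower, in 13.1% of all genes and in 2 of the 9. These were Pxn, the gene of a matrix peroxidase, at 4813 ± 1072 and 2519 ± 202 (log2 fold change -0.91), and the scavenger receptor gene Sr-CI, at 1042 ± 84.5 and 627 ± 73.7 (log2 fold change -0.74; SD, n = 3 each). The defining genes Hml and NimC1 had log2 fold changes of 0.05 and -0.11. No gene of the fat body or haemocyte list passed in either limma fit, the trended fit's adjusted p being 0.0582 for Pxn and 0.139 for Sr-CI. The part of these tissues in the BomS2 difference was not tested, and in whole flies fewer cells of a type and less RNA per cell cannot be told apart.

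The balance of female and male marker signals also differed between arrays, although every pool held equal numbers of each sex by the labels. Summed egg and yolk signals were 586918 to 789356 in the control and 533375, 488396 and 850316 in replicates 1, 2 and 3 of the cross, and summed testis and accessory gland signals were 193036 to 260670 and 250659, 404689 and 243021. The female sum is weighted to its brightest genes, such as Yp1 (control mean 97728). Within that list Cp16 and Cp18 had log2 fold changes of -1.68 and -2.39, but osk and bcd had 0.22 and 0.33. Egg and yolk markers had 10 of 14 estimates below 0 (median -0.14), and testis and accessory gland markers 15 of 16 above 0 (median 0.34). Groups lay apart in 2 of the 14, lower in the cross, and in 2 of the 16, higher, where 13.1% and 6.72% of all genes were so. Of these 16, 1 passed as higher in the trended fit, where 0.334% of all genes did. BomS5, BomBc3 and Bbd were highest in cross replicate 2 and lowest in cross replicate 3 among the arrays of the cross, the order of the male sum and the reverse of that of the female sum. Mtk and BomT3 had that order in the cross too. The likeness held only in part within the control. There BomS5, BomBc3 and Bbd were lowest in replicate 1 and highest in replicate 3. The male sum was also highest in control replicate 3 (260670) but lowest in control replicate 2 (193036). The female sum was highest in control replicate 1 (789356), the reverse of these genes, but lowest in control replicate 2 (586918). The part of this balance in the values of these genes was not tested. For BomS2 the log2 fold change without cross replicate 2 was -1.93.

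The other secreted products of Toll signalling did not follow BomS2. Of 14 further such genes listed, 9 were measured, with 4 estimates above and 5 below 0, a median log2 fold change of -0.05 and 0 past either limma test. Mtk, which encodes the antifungal peptide Metchnikowin, had the smallest p. Its signals were 738.5, 849 and 665 in the control and 1725, 2315 and 1082 in the cross, so all 3 arrays of the cross were higher. The log2 fold change was 1.12 (95% interval 0.36 to 1.89), the reverse of BomS2 in direction, with a limma adjusted p of 0.299 in the main test and 0.117 in the trended fit. Drs, the antifungal peptide Drosomycin and a classical readout of Toll, had a log2 fold change of -0.08 with a 95% interval of -0.62 to 0.46. IM33 had one of 0.11 (95% interval -0.26 to 0.47). BaraB lay above the background on 1 of 6 arrays and allowed no comparison. BomBc3 and BomS6, which also rank among the 3 smallest p-values of the list, are described above. For contrast, 15 genes induced mainly through the Imd pathway, which answers to Gram-negative bacteria, were listed and 7 of them measured. These had 6 estimates below 0 (median -0.27) and 0 past either test. DptB and AttD lay above the background on only 2 of 6 arrays and edin on 1. Their estimates, like that of BaraB, allowed no comparison, so the count and the median say little.

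Of 22 genes of the Toll cascade, from sensors to nuclear factors, 17 were measured and 0 passed in either limma fit, with 8 estimates above and 9 below 0 and a median log2 fold change of -0.08. Groups lay apart in 3 of them, psh, Myd88 and Gprk2, each lower in the cross, where 13.1% of all genes were so. For Gprk2 the log2 fold change was only -0.09 (95% interval -0.37 to 0.20). The lowest p belonged to psh, the protease Persephone that senses microbial proteases upstream of Spätzle. Its signals were 1768, 1827 and 1657.5 in the control and 1131, 1160.1 and 927 in the cross (log2 fold change -0.71, 95% interval -1.08 to -0.35, limma adjusted p = 0.216 in the main test and 0.103 in the trended fit). The serine protease gene spirit, whose groups overlapped, had a log2 fold change of -1.73 with a 95% interval of -3.48 to 0.01. Its signal was above the background on 4 of 6 arrays, with cross replicates 1 and 2 (50.0 and 108) within it. Myd88, the adaptor at the receptor, had means of 4079 ± 341 and 3128 ± 486 (log2 fold change -0.39, 95% interval -0.81 to 0.02). The ligand gene spz, the receptor gene Tl, the inhibitor gene cact and the NF-kappaB gene dl had log2 fold changes of 0.34, 0.18, 0.05 and 0.05, all with intervals that span 0. Dif, the other NF-kappaB factor, was dim, with means of 209 ± 77.1 and 293 ± 118 (SD, n = 3 each).

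**Figure D4:**
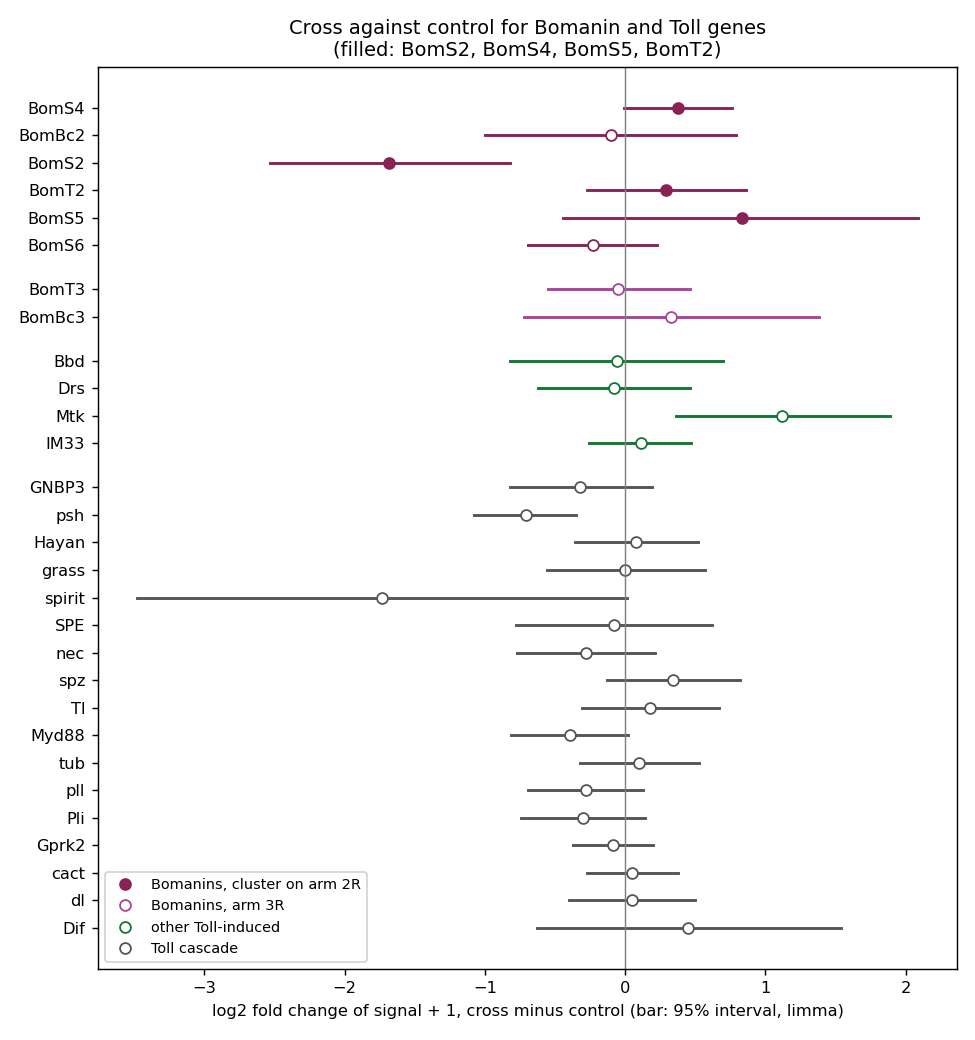
Log2 fold change of signal + 1, cross minus control, with its 95% interval from limma, for the 6 measured Bomanins of the run on arm 2R in their order along it, the 2 on arm 3R, 4 other Toll-induced genes (BaraB, near the background, is left out) and 17 genes of the Toll cascade. Filled points are BomS2, BomS4, BomS5 and BomT2. The intervals of BomS2 (-2.53 to -0.82) and psh (-1.08 to -0.35) lie below 0 and that of Mtk (0.36 to 1.89) above it, before any adjustment for the number of genes.

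The genes whose profile over the 6 arrays was most like that of BomS2, among 10181 genes above the background on all arrays, were ACC, which encodes acetyl-CoA carboxylase of fatty acid synthesis (Pearson r = 0.996, Spearman rho = 1.0), the cytochrome P450 gene Cyp6a20 (0.992 and 1.0) and GNBP2, a member of the glucan-binding protein family (0.992 and 0.943). Their differences were smaller than that of BomS2, with log2 fold changes of -0.26, -0.80 and -0.80, since the likeness is one of shape. Cyp6a20 passed in the trended fit (adjusted p = 0.0475). The genes most like the mean standardised profile of the 4 Bomanins were bbc, CG30281, CG10184, Task6 and CG33225, with r from 0.946 to 0.976 and log2 fold changes of 0.07 to 0.84. These genes were the best of 10181 over 6 arrays, and no p-value is attached to them.

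**Figure D5:**
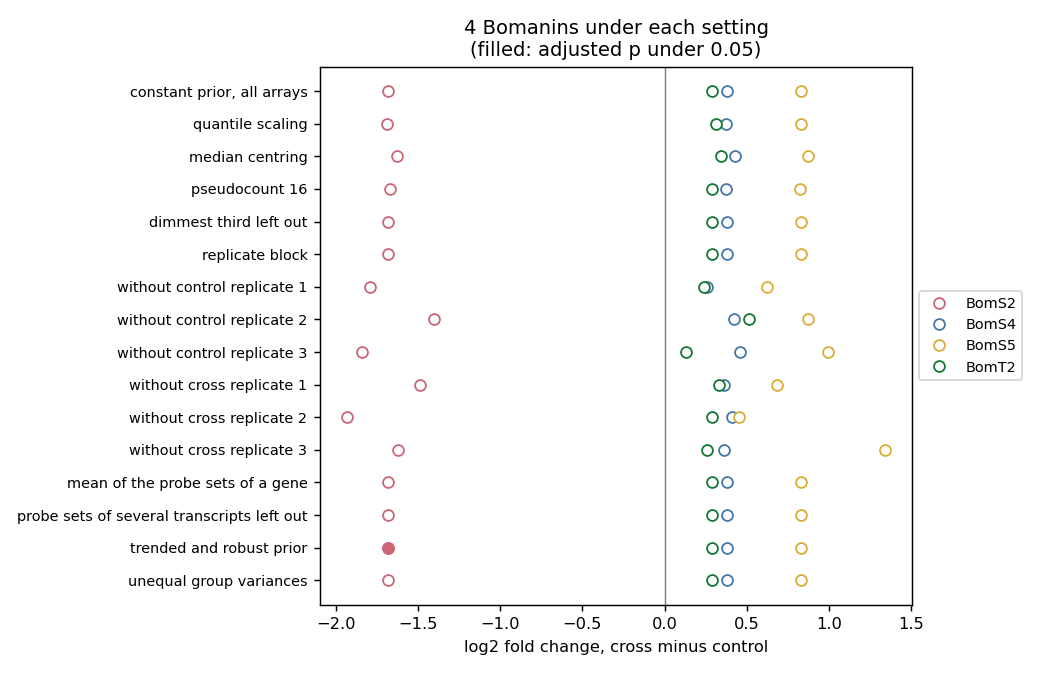
Log2 fold change, cross minus control, of BomS2, BomS4, BomS5 and BomT2 in the main test (top line) and under 15 other settings, filled where the adjusted p is under 0.05. The sign is the same in every setting shown for each of the 4 genes, BomS2 runs from -1.93 to -1.40 and BomS5 from 0.45 to 1.34, and the single filled point is BomS2 in the trended fit.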

How the data were processed

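Whole-fly total RNA (2 ug, biotin-labelled, per the labels' protocols) was read on 6 arrays. The values are the probe set intensities deposited by the authors, on a linear scale. How the probes were summarised and scaled is not given in the sources used here, but a mean trimmed by 2% at each end was 2500.1 on every array. After 183 control probe sets were left out, 18769 probe sets were tested, and of these 13647 had 1 gene symbol by the platform annotation, 402 several and 4720 none or no listing. For a gene with several probe sets the brightest one stood. Names and gene order came from the Release 6 gene table, which 13544 probe sets matched.

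The working scale was log2(signal + 1), which understates the fold changes of dim genes. Groups were compared two-sided in limma 3.58.1 under R 4.3.3, using lmFit and then eBayes with 1 prior variance, and p-values were adjusted by Benjamini and Hochberg's method across the whole tested table. The fit was tested on simulated data. The genes examined, the lists, the settings and the rule for named genes (all members, the 3 smallest p-values of each Toll list, members' neighbours in the run, and the closest profiles) were chosen with earlier results of these data known. Further genes of the Toll and marker lists, such as Drs, Dif, Pxn and Sr-CI, were named outside that rule, with their values known. Alternatives were a prior that is trended and robust, unequal group variances, the replicate block, each array left out, quantile scaling, centring on the median, adding 16 before the log, dropping the dimmest 33.3%, the mean over a gene's probe sets, and dropping those of several transcripts. The trended fit under these alternatives was added after seeing the data.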

Additional observations from a re-analysis of the deposited data

How the results depend on the processing

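The log2 fold changes of BomS2, BomS4, BomS5 and BomT2 kept their sign under all 15 alternatives, and those of BomS4 and BomT2 ranged from 0.26 to 0.46 and from 0.13 to 0.51. BomS2 passed under 1 of them, the trended prior (log2 fold change -1.68, 1 member lower), and its adjusted p ranged from 0.03 to 0.473. The count of probe sets past the test was 0 in the main test, 147 with the trended prior, 112 without the dimmest 33.3% of probe sets and 1 with unequal group variances. Leaving out single arrays moved the median of the other Toll-induced genes between -0.16 and 0.21, the latter without control replicate 2. The Toll cascade's moved between -0.17 (without control replicate 3) and -0.03, and was -0.28 without probe sets of several transcripts, where fewer genes are measured. In the trended fit, BomS2 passed under 9 of 13 alternatives (adjusted p 0.00862 to 0.168). With 1 array left out, that fit called 7 to 225 probe sets and 0 to 1 of the 4 Bomanins. It called 81 probe sets without those of several transcripts. Samples of the same replicate number deviated from their group means with correlations of -0.022, 0.001 and -0.097, so the numbers gave no sign of pairing. With the replicate block, BomS2 had an adjusted p of 0.461 in the main test and 0.038 in the trended fit, which called 8 probe sets in all. Apart from the counts given here, the cause of these changes was not tested. The 6 arrays and the spread of bright Bomanin signals within groups limit what can be called.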
